A study of Rattus norvegicus with 38 samples.

Results

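Of the 3417 differentially methylated regions (DMRs) deposited for buccal swabs of rat pups, 586 consisted of a single CpG position and had a mean methylation level of at least 45% and under 60% over the 19 swabs taken on postnatal day 2 (P2). These 586 DMRs were chosen by that P2 level alone, and they made up 17.1% of all DMRs and 23.3% of the 2510 single-CpG DMRs. Their level at P2 is therefore a description and not a result. They lay on 21 chromosomes of rn6, with 70 on chromosome 1, 49 on chromosome 7 and 2 on chromosome X, and 1 was on an unplaced scaffold.

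The 38 swabs, a pair from each of 19 Sprague-Dawley pups at P2 and P10, were measured by reduced representation bisulfite sequencing (RRBS). The 10 control pups were reared in standard bedded cages, and the 9 LBN pups spent P2 to P9 with their dam in cages with limited bedding and nesting material. Of the controls 6 were of cohort 1 and 4 of cohort 2, and of the LBN pups 5 and 4. Pups of several litters had been mixed among the dams on P2, and the sex and dam of each pup were not given with the samples. The first swab preceded the assignment of pups to cages, so no pup had been in an LBN cage at P2. A swab holds epithelial cells and white blood cells together, and fewer methylated cells of a type and a lower level within a cell type cannot be told apart. No expression was measured, so the cell types could not be checked by their markers.

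In mammalian DNA most CpG sites are either methylated or unmethylated on a given molecule, and DNA methyltransferases copy the mark to the new strand when a cell divides. A level near the middle of the scale is a mixture of methylated and unmethylated molecules, such as arises between cells of different types, between the alleles of imprinted genes, or on the X chromosomes of females. At such sites a level can move far in either direction. The depth behind each percentage is unknown, since no read numbers were given with the values, and the counting error of a percentage cannot be given. All 3417 DMRs had been chosen by the authors for differences between P2 and P10 within these pups, so counts of change with age describe a selected set. A DMR could enter through pups of either experience alone, so comparisons of LBN with control pups are not independent of that choice. No pair of samples held identical values.

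A gene was given for 69 of the 586 DMRs, 34 of them in introns, 20 between genes, 9 in exons, 3 at promoters and 3 at transcription termination sites. These places came from the study's lists of age-related and experience-related DMRs, which held 90 of the 586, and no annotation of rn6 was used here for the other 496. The DMRs at promoters belonged to Taok3, a kinase of the TAO family, to Gpr39, a zinc-sensing G protein-coupled receptor, and to Hsp90b1, a chaperone of the endoplasmic reticulum. Their promoters are shown because RRBS reads start at CCGG, the site cut by MspI, which is in capitals. Each runs 5′ to 3′ on the gene's strand from 250 bases before to 50 after the start in RefSeq on GRCr8, a later build than rn6, so the measured CpG cannot be marked.
Taok3: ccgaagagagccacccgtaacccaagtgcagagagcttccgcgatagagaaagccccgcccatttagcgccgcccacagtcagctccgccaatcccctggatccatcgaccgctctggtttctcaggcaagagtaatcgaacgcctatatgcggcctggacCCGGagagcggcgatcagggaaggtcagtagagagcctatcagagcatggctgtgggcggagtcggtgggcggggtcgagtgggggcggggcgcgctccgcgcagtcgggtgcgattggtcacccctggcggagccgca
Gpr39: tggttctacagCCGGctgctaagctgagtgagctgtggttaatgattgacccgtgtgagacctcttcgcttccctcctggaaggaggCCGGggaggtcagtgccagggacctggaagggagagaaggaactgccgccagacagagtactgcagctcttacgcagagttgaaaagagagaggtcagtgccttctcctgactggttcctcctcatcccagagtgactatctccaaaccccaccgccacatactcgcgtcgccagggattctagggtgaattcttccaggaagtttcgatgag
Hsp90b1: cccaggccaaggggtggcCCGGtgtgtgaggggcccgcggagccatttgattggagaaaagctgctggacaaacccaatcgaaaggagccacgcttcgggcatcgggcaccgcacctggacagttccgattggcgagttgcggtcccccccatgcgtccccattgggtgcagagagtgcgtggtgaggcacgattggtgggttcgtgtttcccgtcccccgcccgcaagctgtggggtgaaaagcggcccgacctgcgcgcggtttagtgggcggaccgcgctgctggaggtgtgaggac
The Gpr39 window, for the more upstream of its 2 listed starts, held 2 such sites and 11 CpGs. The Taok3 window held 1 site and 29 CpGs, and the Hsp90b1 window 1 site and 26 CpGs. CCGG, which reads the same on both strands, occurred in 51.4% of all 33469 promoter windows. At the Gpr39 CpG (chr13:42008457-42008458) the P2 levels ran from 30.3% over a median of 42.6% to 83.3%, and the P10 levels from 18.1% over 35% to 50%. At the Hsp90b1 CpG (chr7:27241089-27241090) they ran from 16.7% over 52.0% to 76.2% at P2 and from 20.6% over 38.5% to 52.4% at P10. At the Taok3 CpG (chr12:45182925-45182926) they ran from 25.8% over 44.3% to 67.2% at P2 and from 10.6% over 41.0% to 64.8% at P10. The P2 and P10 ranges overlapped at each of the 3 promoters, and the level was lower at P10 in 16, 15 and 14 of 19 pups for Gpr39, Hsp90b1 and Taok3.

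Single swabs spread widely around the P2 mean that defined the set. Of the 11134 values at P2, 39.9% lay between 45% and 60%, and 97.1% lay between 20% and 80%. The SD over the 19 P2 swabs had a median of 12.6 percentage points over the 586 DMRs and ran from 3.78 to 29.5. The median was 10.6 over all DMRs and 13.0 over the 281 DMRs of several CpGs with P2 means in the same band. The DMRs nearest inside the lower limit had mean P2 levels of 45% (chr7:140473260-140473261) and 45.01% (in Fam189a1), and those nearest outside had 44.98% each (in RGD1306271 and at chr18:80149910-80149911). At the upper limit the nearest inside had 59.99% (chr2:255195919-255195920) and 59.96% (chr1:81425933-81425934), and the nearest outside 60.02% (chr13:80642626-80642627) and 60.05% (chr5:151198902-151198903).

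The mean level of the 586 DMRs fell between P2 and P10 in every pup of cohort 2 and moved either way in cohort 1. The mean over the 586 DMRs went from 52.4% ± 2.71 to 48.1% ± 5.77 over the 19 pups (SD). In cohort 1 it went from 54.1% ± 1.87 to 52.5% ± 1.97 (n = 11), with changes of single pups from −6.99 to 2.16 percentage points. In cohort 2 it went from 50.1% ± 1.85 to 42.1% ± 2.89 (n = 8), with changes from −12.0 to −5.91. The mean change was −2.75 ± 3.09 in control and −0.144 ± 1.84 in LBN pups of cohort 1, and −8.05 ± 2.65 in control and −7.93 ± 1.85 in LBN pups of cohort 2. The changes of control and LBN pups overlapped in both cohorts, and as a score over DMRs chosen from these data the mean was not tested. The pattern by cohort was not particular to the 586. Over all DMRs the mean change was −0.394 ± 2.47 in cohort 1, with single pups from −4.39 to 3.06. In cohort 2 it was −6.33 ± 2.17 over all DMRs, with single pups from −9.77 to −4.18.

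**Figure D1:**
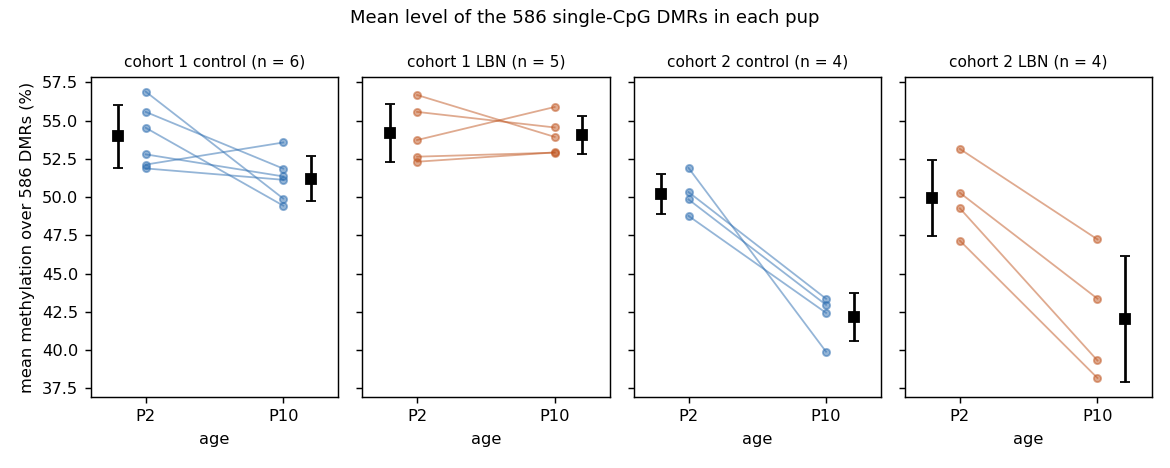
Mean methylation (%) of the 586 DMRs in each pup at P2 and P10, by cohort and experience, with lines joining the swabs of a pup and black squares and bars giving the group mean and SD. All 8 pups of cohort 2 fell, by 5.91 to 12.0 percentage points, while cohort 1 pups moved between −6.99 and 2.16. Over all DMRs the changes ran from −9.77 to −4.18 in cohort 2 and from −4.39 to 3.06 in cohort 1.

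At P10 the DMRs had left the band mostly downward. Of the 586, 239 had a mean P10 level under 45%, 259 were still from 45% to under 60%, and 88 were at 60% or above. The lowest P10 mean was 19.1% and the highest 78.5%. The mean was lower at P10 for 370 DMRs (63.1%, against 57.0% of all DMRs), with a median change of −4.86 percentage points (−1.85 over all DMRs). It was lower for 63.3% of single-CpG DMRs in the next higher band (median −4.48) and 48.6% in the next lower (0.253). Among DMRs of several CpGs in the same band it was lower for 70.1% (−5.93). For the 586 the direction differed by cohort, with a median change of 0.821 in cohort 1 and −9.22 in cohort 2. Their mean was lower at P10 for 285 DMRs in cohort 1 and for 447 in cohort 2, beside 1575 and 2429 of all 3417 DMRs. Over all DMRs the median changes were 1.34 in cohort 1 and −5.98 in cohort 2. With limma and the pup as a block, 266 DMRs (45.4%) passed an adjusted p of 0.05 between the ages, 65 higher and 201 lower at P10, beside 43.7% of all DMRs, 13.7% higher and 30.0% lower. In controls alone 164 passed (28.0%, background 27.6%), and in LBN pups alone 26 (4.44%, background 5.33%), of which 24 were also among the 164 with the same sign. This order of control and LBN counts did not hold within cohort 1, where 3 passed in controls and 90 in LBN pups (0.702% and 16.5% of all DMRs), and in cohort 2 alone 119 and 82 passed (19.3% and 16.6%). Over pups of both experiences 144 passed in cohort 1 alone and 178 in cohort 2 alone (25.8% and 27.6% of all DMRs). Leaving out 1 pup moved the control count to between 103 (without C1 of cohort 2) and 226 (without C9 of cohort 1), and the LBN count to between 3 (without LBN2 of cohort 2) and 37 (without LBN4 of cohort 2). The choice of the DMRs used this contrast, so nothing is read from these counts.

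**Figure D2:**
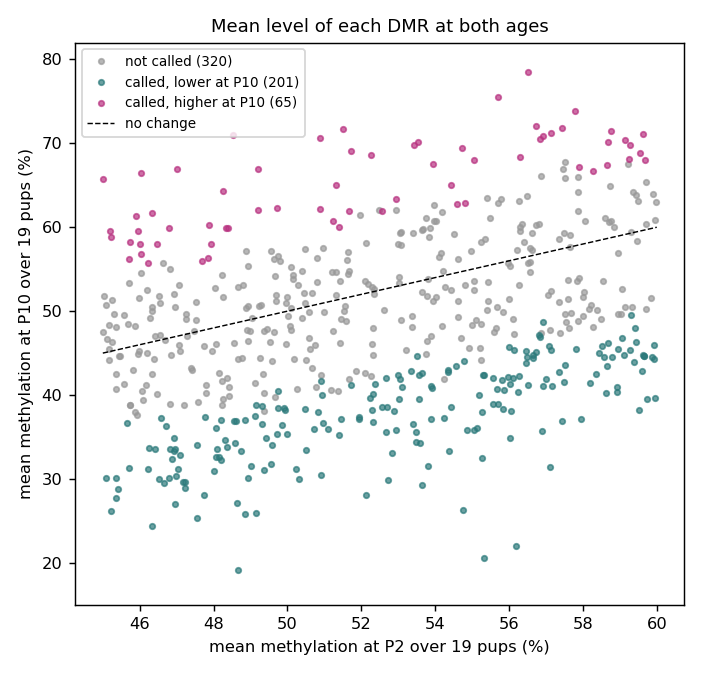
Mean methylation (%) of each of the 586 DMRs over 19 pups at P2 (x) and P10 (y), colored by the limma call between the ages, with the dashed line marking no change. Below the line lie 370 DMRs, and 201 of the called DMRs are lower and 65 higher at P10.

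Among DMRs that moved the same way in at least 17 of 19 pups (45 down, 28 up, or 7.68% and 4.78%, against 8.28% and 4.77% of all DMRs), the 6 largest falls ended at mean levels of 19.1% to 31.4%. Pecr encodes a peroxisomal enoyl-CoA reductase of fatty acid elongation, and the CpG at its termination site (chr9:79600940-79600941) ran from 34.1% over a median of 55.6% to 73.3% at P2 and from 5.26% over 20.2% to 39.4% at P10. It fell in 19 of 19 pups, by 34.8 ± 11.3 percentage points (SD, n = 19). The CpG at chr12:13368480-13368481 went from a mean of 56.2% to 22.0%, lower in 19 pups, and the one at chr13:73740420-73740421 from 54.8% to 26.3%, also lower in 19. An intronic CpG of Fam129b, also called Niban2, went from 48.7% ± 15.9 to 19.1% ± 6.36 and was lower in 18 pups. An intronic CpG of Slc7a1, the cationic amino acid transporter CAT1, went from 53.6% ± 17.7 to 29.3% ± 15.5 and was lower in 17. The CpG at chr19:24929805-24929806 went from 57.1% to 31.4%. Spread differed among these sites: at P10 Fam129b stayed between 8.22% and 34.8%, whereas Slc7a1 ran from 5.56% to 52.2%.

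The 6 largest rises ended at mean levels of 65.7% to 78.5%. At chr15:108041376-108041377 the P2 levels ran from 28.2% over 47.7% to 70.5% and the P10 levels from 56.8% over 72.3% to 80.3%, a rise in 19 of 19 pups by 22.5 ± 9.28 percentage points. At chr7:140473260-140473261, the DMR at the very edge of the band, all P10 levels (56.1% to 74.6%) lay above all P2 levels (32.1% to 55.2%). An exonic CpG of Mn1, a transcriptional coactivator that acts in palate and skull development, went from 46% ± 8.91 to 66.5% ± 9.60 and was higher in 18 pups. The CpGs at chr2:184678532-184678533, chr2:94379285-94379286 and chr5:144856136-144856137 went from 56.5% to 78.5%, from 47.0% to 66.9% and from 55.7% to 75.5%, each higher in 18 pups. In all, 9 DMRs fell and 3 rose in every pup (1.54% and 0.512%, against 1.29% and 0.966% of all DMRs).

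**Figure D3:**
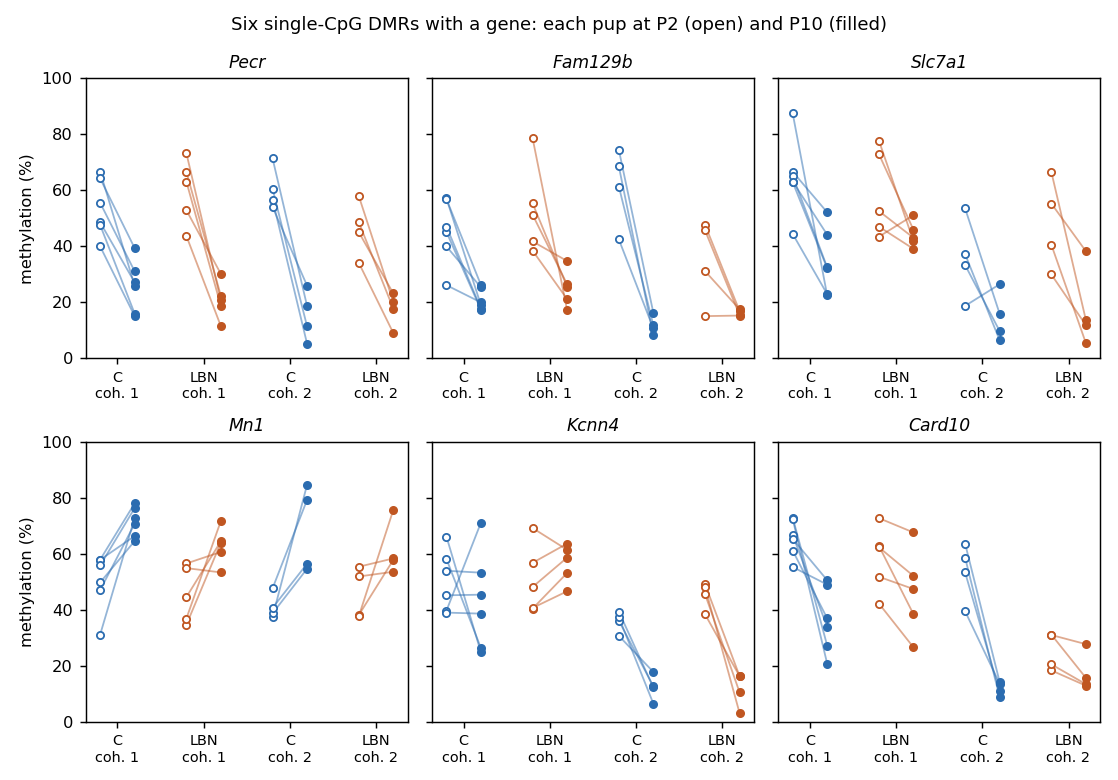
Methylation (%) of 6 DMRs in each pup, with open circles for P2, filled circles for P10, blue for control (C) and orange for LBN pups, by cohort (coh.). Pecr and Card10 fall in all 19 pups, Mn1 is higher at P10 in 18, and Kcnn4 ends between 3.16% and 17.8% in cohort 2 and between 24.8% and 71.1% in cohort 1.

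The study's text names 14 genes that carry 15 of these DMRs, Gpr39 with the promoter CpG above among them. It names Krt42, Mrc2, B4galt4 and Atp8b4 for age, from control pups alone and after correction for cohort. The first 3 it lists with lower methylation at P10 and Atp8b4 with higher. The remaining genes it names for differences between LBN and control pups in the change within a pup. The values here are uncorrected changes with age over pups of both experiences. Those of immune and leukocyte signalling were lower at P10. Cxcr4, the receptor of the chemokine CXCL12, had a CpG nearby that went from 56.0% ± 15.8 to 34.9% ± 12.7 and was lower in 14 of 19 pups. Card10, a scaffold for NF-kappaB activation, had an exonic CpG that went from 52.7% ± 17.4 to 29.9% ± 17.2 and was lower in all 19. Dapp1, an adaptor of B cell receptor signalling, went from 54.4% ± 9.81 to 42.8% ± 14.0. All 3 members of the list of leukocyte and inflammatory signalling genes were among the 201 called lower, against 34.3% of the 586 DMRs. Gene names came only from the 90 DMRs in the study's lists, which were picked on these data. Of those 90, 58 were called lower, against 143 of the other 496, so nothing is read from the 3. The gene lists had been drawn up with earlier results of these data known.

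Of the list of growth factor and Wnt receptors and ligands, 1 of 2 members was called lower. Gdnf, a neurotrophic factor, went from 48.1% ± 11.3 to 36.1% ± 15.2, and Fzd5, a Wnt receptor, from 48.2% ± 14.9 to 38.8% ± 14.0, of which Gdnf was called and Fzd5 was not. Sulf2, Ppp1r21 and Lrrfip1, which belonged to none of the lists, were called lower. Sulf2, which trims sulfates from heparan sulfate chains, went from 45.2% ± 13.6 to 26.2% ± 13.6 and was lower in 17 pups. Skor1, a transcriptional corepressor and the member of the list of developmental transcription factors, had 2 CpGs that were 122 base pairs apart, one at 55.9% and then 40.6%, the other at 52.3% and then 46%, and the first of them was called. Ppp1r21, an endosomal protein, went from 53.6% ± 18.9 to 34.3% ± 18.1, and Lrrfip1, a nucleic acid-binding regulator, from 47.7% ± 15.6 to 28.1% ± 14.9. Atp8b4, a putative phospholipid flippase, was the one of these genes with a higher mean at P10, 67.8% ± 16 after 57.5% ± 11.4, and it was not called.

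At the remaining genes of that text single pups moved far in both directions. Krt42, a type I keratin, had levels from 22.1% over 42.9% to 81.7% at P2 and from 9.32% over 38.1% to 82.9% at P10. Mrc2, an endocytic collagen receptor, ran from 20.4% over 50% to 76.3% at P2 and from 11.4% over 49.4% to 77.6% at P10. B4galt4, a galactosyltransferase, ran from 20.3% over 46.3% to 61.9% at P2 and from 13.6% over 39.7% to 67.7% at P10. The 3 CpGs were lower at P10 in 11, 10 and 12 of 19 pups, and none was called between the ages. These uncorrected levels of control and LBN pups together are not those on which the study listed the 3 genes. Krt42 was the only member of the epithelial list among the DMRs with a gene, and no gene of the lists of DNA methylation machinery and of imprinted genes carried one.

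A principal component analysis of the within-pup changes, chosen after values of these DMRs were seen, described how the members moved relative to each other. Its first component held 52.5% of the variance among pups over the 586 DMRs, against 50.6% over all DMRs, and the second held 8.95%. By the sign of their weight the DMRs formed a first set of 303 and a second set of 283. Since the split was made on the sign of these same changes, movement of the sets against each other is what the split selects for and is given as a description. The mean levels of these sets moved in opposite directions in 14 of the 19 pups, which were all 11 of cohort 1 and 3 of cohort 2. In 10 of the 14 the first set rose and the second fell, in 4 the reverse was seen, and in the other 5 pups both fell. In LBN2 of cohort 1 the first set went from 45.2% to 66.7% and the second from 60.6% to 38.2%. In C6 of cohort 1 the first set went from 65.0% to 44.4% and the second from 48.3% to 55.8%. In C11 of cohort 2 the first set went from 34.6% to 47.2% and the second from 63.9% to 37.4%. Over the 19 pups the change of the first set ran from −20.6 to 22.7 percentage points and that of the second from −26.6 to 8.83.

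Few DMRs changed set when pups were left out. With each pup left out in turn, 571 to 585 of the 586 DMRs stayed in their set, and 540 fell on the same side when the component was computed in each cohort alone. Fits that leave out a pup share most of their pups, and no such counts are given for all DMRs. Nothing particular to the 586 is therefore read from these counts. With the sets taken from cohort 1 alone, the change of the first set minus that of the second ran from −24.1 to 39.9 percentage points over the 8 pups of cohort 2. With the sets taken from cohort 2 alone, it ran from −29.3 to 42.5 over the 11 pups of cohort 1. The difference between the sets ran from −29.3 to 27.9 percentage points at P2, and the changes that formed the sets include these P2 values.

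Genes were found in 25 DMRs of the first set and 44 of the second. The first set held Krt42, Mrc2, B4galt4, Kcnn4, a calcium-activated potassium channel, Smarce1, a subunit of SWI/SNF chromatin remodelers, and Prkd2, a protein kinase D. The second held Cxcr4, Card10, Dapp1, Gdnf, Fzd5, Ppp1r21, Lrrfip1, both Skor1 CpGs, Dock5, a Rac exchange factor, and P2ry14, a receptor of UDP-glucose. The most negative weight belonged to an intronic CpG of Sgk1, the serum- and glucocorticoid-regulated kinase. The mean change over pups was 0.285 ± 14.2 percentage points for the first set and −9.15 ± 10.5 for the second (SD, n = 19). Of the 201 DMRs called lower at P10, 33 were of the first set and 168 of the second. The sets were formed on these same changes, so the means and counts by set are a description.

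**Figure D4:**
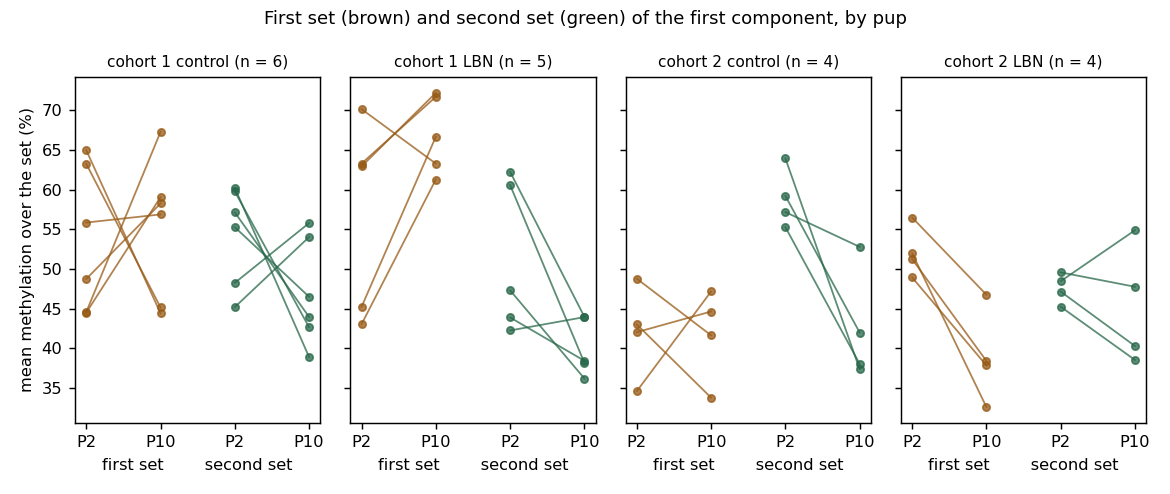
Mean methylation (%) of the first set (303 DMRs, brown) and the second set (283 DMRs, green) in each pup at P2 and P10, by cohort and experience. The sets were split by the sign of their weight on these same changes. The first set lies between 32.6% and 72.2% at P10.

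Whether the week in the LBN cage went with a different level was tested at P10 with cohort as a covariate. With limma and Benjamini-Hochberg adjustment over all 3417 DMRs, 0 of the 586 were called, and the lowest adjusted p was 0.482. At an unadjusted p under 0.05 there were 63 (10.8%, against 9.86% of all DMRs), 48 higher (8.19%, background 6.32%) and 15 lower in LBN pups (2.56%, background 3.54%). The CpG at chr11:57224662-57224663 had the lowest p, with P10 levels of 32.7% ± 10.3 in controls (20% to 53.5%, n = 10) and 45.4% ± 12.4 in LBN pups (32.6% to 65.1%, n = 9). An intronic CpG of Cbs, which makes cystathionine from homocysteine, had P10 levels of 36.9% ± 8.41 in controls and 63.9% ± 8.99 in LBN pups of cohort 1, without overlap, and of 34.0% ± 10.5 and 32.3% ± 0.841 in cohort 2. The CpGs at chr5:60671189-60671190, chr11:30240203-30240204 and chr4:5947937-5947938 were higher in LBN pups by 0.86 ± 0.27, 1.16 ± 0.40 and 0.81 ± 0.29 (SE) on the log2 odds scale.

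The cohorts gave different counts. In cohort 1 alone 66 of the 586 were called at P10 (12.0% of all DMRs were, 7.52% higher and 4.45% lower in LBN pups), and in cohort 2 alone 0 were, with 1.32% of all DMRs at an unadjusted p under 0.05. All 46 that were higher in LBN pups of cohort 1 belonged to the first set, and all 20 that were lower to the second, and the sets had been formed on changes that include these P10 values. Of the 46, 10 were also higher in the LBN mean of cohort 2, and of the 20, 2 were also lower. Over the whole first set the cohort 2 P10 means were 38.9% in LBN pups and 41.8% in controls. Over the whole second set they were 45.4% and 42.6%. DMRs of a set moved together and no such counts are given for all DMRs, so nothing is read from the 10 and the 2. Higher ones of cohort 1 with a gene were Cbs and Prkd2, the latter at 49.2% ± 10.6 in controls and 71.6% ± 11.2 in LBN pups. Lower ones included Sgk1, at 47.1% ± 19.1 in controls and 23.3% ± 7.85 in LBN pups, Dock5, at 43.5% ± 7.45 and 22.0% ± 5.47, Gdnf, at 50% ± 10.9 and 30.5% ± 5.28, Taok3, at 40.9% ± 4.69 and 24.8% ± 8.61, and both Skor1 CpGs. P10 levels of control and LBN pups did not overlap at 21 of the 586 in cohort 1 (4.80% of all DMRs) and at 8 in cohort 2 (1.11%). The difference between cohorts in the LBN effect at P10 was called at 0 of the 586 by limma (lowest adjusted p 0.154), with 131 at an unadjusted p under 0.05 (22.4%, background 23.6%).

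The same comparison at P2, before the assignment to cages, gave calls in cohort 2 and none in cohort 1. Over both cohorts 0 of the 586 were called (lowest adjusted p 0.354 by limma), with 89 at an unadjusted p under 0.05 (15.2%, against 13.4% of all DMRs). In cohort 2 alone 84 were called, 13 higher and 71 lower in the pups later placed in LBN cages, beside 14.0% of all DMRs (4.33% higher and 9.69% lower), and in cohort 1 alone 0 were, with 1.73% of all DMRs at an unadjusted p under 0.05. The 13 all lay in the first set and the 71 in the second, and the changes that formed the sets include these P2 values too. Of the 13, 10 were also higher in the later LBN mean of cohort 1, and of the 71, 52 were also lower. Over the whole first set the cohort 1 P2 means were 56.9% in later LBN pups and 53.7% in later controls. Over the whole second set they were 51.3% and 54.3%. DMRs of a set moved together and no such counts are given for all DMRs, so nothing is read from the 10 and the 52. At P2 the later LBN pups of cohort 2 had lower levels than the later controls at Sgk1 (45.1% ± 7.44 against 72.2% ± 7.09), Card10 (25.2% ± 6.78 against 53.8% ± 10.4), Ppp1r21 (25.2% ± 15.7 against 56.1% ± 12.1), Fzd5 (42.2% ± 5.34 against 67.5% ± 11) and P2ry14 (50.5% ± 6.14 against 74.3% ± 8.89), each with n = 4. In cohort 1 the P2 means of later LBN pups and later controls were 51.9% and 50.3% at Sgk1 and 58.4% and 65.6% at Card10. They were 61.0% and 64.6% at Ppp1r21, 42.6% and 44.05% at Fzd5, and 41.8% and 47.3% at P2ry14.

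For the change within a pup, δ methylation was taken as log2(P10/P2) at the 583 DMRs with no level of 0. Between LBN and control pups 0 were called by limma (lowest adjusted p 0.9999), and 26 had an unadjusted p under 0.05 (4.46%, against 3.25% of all DMRs), 19 of them higher in LBN pups (3.26%, background 2.18%). Card10 had the lowest p. Its δ methylation ran from −2.74 to −0.174 in controls, with a mean of −1.42 ± 0.85 (n = 10), and from −0.987 to −0.105 in LBN pups, with a mean of −0.46 ± 0.31 (n = 9). The difference was 0.99 ± 0.24 (SE), and in cohort 2 the later LBN pups had started from the lower P2 levels given above. The CpG at chr8:7192555-7192556 had −0.89 ± 0.32 in controls and −0.26 ± 0.38 in LBN pups. Bmf, which encodes a pro-apoptotic BH3-only protein, had 0.04 ± 0.43 and −0.54 ± 0.46, and Spsb4, a SOCS box adaptor of ubiquitin ligases, 0.40 ± 0.42 and −0.14 ± 0.28. At chr2:198596933-198596934 the values were 0.01 ± 0.38 and −0.44 ± 0.29. Control and LBN values overlapped at these 5 CpGs when cohorts were pooled.

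In cohort 2 alone 1 DMR was called in δ methylation (background 0.325%), an exonic CpG of Sh2d5, an SH2 domain adaptor, named after its values were seen. It had −1.80 ± 0.37 in controls and −0.16 ± 0.21 in LBN pups (n = 4 each, limma adjusted p 0.0477), and in cohort 1 the means were −0.53 and −0.50. At P2 it stood at 62.3% ± 13.4 in the controls of cohort 2 and at 34.1% ± 16 in the pups later placed in LBN cages. Changes in percentage points did not overlap between control and LBN pups at 96 of the 586 in cohort 2 (15.7% of all DMRs) and at 2 in cohort 1 (0.556%). The difference between cohorts in the LBN effect on δ methylation was called at 0 of the 583 by limma (lowest adjusted p 0.0806, and 0.0298% of all DMRs were called), with 134 at an unadjusted p under 0.05 (23.0%, background 25.0%). Without LBN4 of cohort 1 the count called was 40, without C12 of cohort 1 it was 6, and it was 1 without LBN2 and 1 without C5 of cohort 2. The shares of all DMRs called in those fits are not given, so nothing particular to the 586 is read from these counts.

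The cohorts themselves differed. In δ methylation 39 of the 583 were called between cohorts by limma (6.69%, against 6.20% of all DMRs), 2 higher (0.343%, background 0.209%) and 37 lower in cohort 2 (6.35%, background 5.99%). The count ran from 21 (without LBN11 or C8 of cohort 2) to 72 (without C11 of cohort 2) when 1 pup was left out, and it was 13 on changes in percentage points. For these fits the shares of all DMRs are not given. Of the 39, 24 had a mean that rose in cohort 1 and fell in cohort 2, and 36 belonged to the first set. The sets had been formed on these same changes over pups of both cohorts. At chr5:114203954-114203955 the P10 levels were 56.0% to 84.3% in cohort 1 and 11.4% to 32.0% in cohort 2, without overlap, after P2 means of 62.8% and 54.0%. Its δ methylation was lower in cohort 2 by 1.5 ± 0.23 (SE, limma adjusted p 0.00116). Near Kcnn4 the P10 levels were 24.8% to 71.1% in cohort 1 and 3.16% to 17.8% in cohort 2, and the difference in δ methylation was −1.84 ± 0.36 (limma adjusted p 0.00581). An intronic CpG of LOC102552318 had −1.36 ± 0.24, and those at chr16:84515629-84515630 and chr3:160536454-160536455 had −0.97 ± 0.19 and −1.17 ± 0.23. Krt42 and B4galt4 were among the 39, with mean changes of 2.60 and 4.03 percentage points in cohort 1 and −19.2 and −24.4 in cohort 2, as were Abhd2 and Myom2.

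In level, 80 of the 586 were called between cohorts at P2 (13.7%, background 12.6%), a count that ran from 43 (without C5 of cohort 2) to 159 (without LBN3 of cohort 1) when 1 pup was left out, and 306 at P10 (52.2%, background 49.2%), of which 268 were lower in cohort 2 (45.7%, background 42.1%). Of these 268, 223 were of the first set, and the sets had been formed on changes that include these P10 values. P10 levels of the cohorts did not overlap at 33 of the 586 (5.82% of all DMRs). The cohorts were collected on different dates, and cohort and date cannot be told apart.

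**Figure D5:**
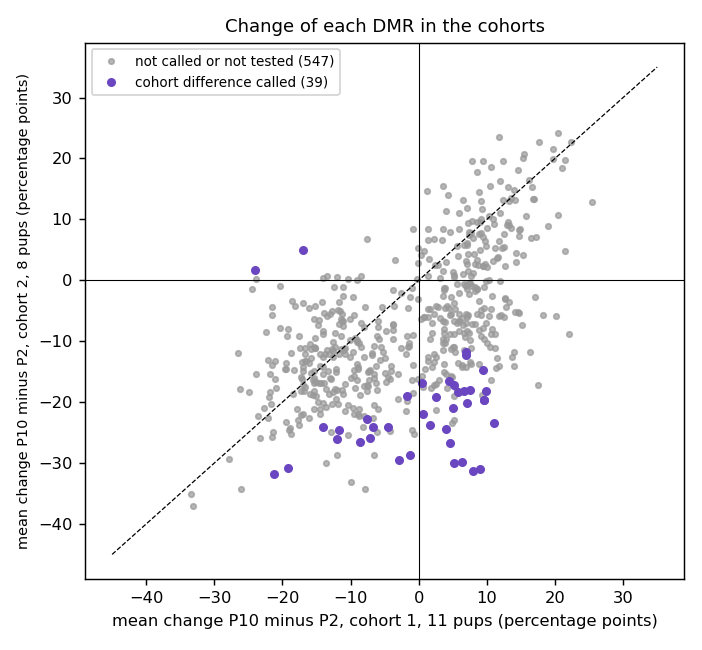
Mean change of each DMR from P2 to P10 (percentage points) in cohort 1 (x, 11 pups) and cohort 2 (y, 8 pups), with the 39 DMRs called between cohorts in purple and equal change on the dashed line. In 177 DMRs the mean rose in cohort 1 and fell in cohort 2, and in 15 it did the opposite. The matching counts over all DMRs are not given.

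How far each pup kept its level from P2 to P10 was described by a ratio. Within the 4 groups, the variance of the change was divided by the summed variances at both ages. This ratio is 1 when the levels of a pup at P2 and P10 are unrelated and nears 0 when each pup keeps its level. It is above 1 when pups higher at P2 tend to be lower at P10 within their group. The authors had chosen all DMRs for change within single pups, which favours high ratios. The ratio had a median of 1.13 over the 586 DMRs and 1.15 over all DMRs, and it was above 1 at 421 (71.8%, against 74.7% of all DMRs). It was under 0.5 at 2 of the 586, which were named after their values were seen. The lowest, 0.165, was at chrX:69100828-69100829. At P10 this CpG was between 3.33% and 16.7% in 8 pups and between 36.4% and 46.5% in the other 11, with no value in between. Those 8 pups had also been the lowest at P2, at 10.7% to 43.1%, while the other 11 had 47.2% to 68.5%. The other CpG on chromosome X (chrX:33929901-33929902) had a ratio of 1.27.

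At chr8:74206876-74206877 the ratio was 0.477, and this was among the 3 widest P10 ranges, from 2.44% to 94.0%. In cohort 1 its level was 32.1% ± 16.2 at P2 and 33.5% ± 15.1 at P10, and C7 had 0% and 2.44%. In cohort 2 it was 67.4% ± 7.36 and 74.0% ± 11.2, and the cohorts differed by 2.46 ± 0.59 (SE) at P2 and 2.81 ± 0.52 at P10 on the log2 odds scale (limma adjusted p 0.00899 and 9.9e-05). A CpG near Myl2, the ventricular myosin regulatory light chain, followed with a ratio of 0.503. The other wide sites, chr5:169729028-169729029 and chr20:49999725-49999726, spanned 6.00% to 100% and 7.69% to 100% at P10. At the narrow end, chr19:56337691-56337692 stayed within 57.3% and 68.1% at P10 and 52.4% and 65.0% at P2, and chr18:59324844-59324845 within 60.4% and 78.8% at P10.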

How the data were processed

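RRBS percentages of 38 buccal swabs (19 pups, P2 and P10) were used. Per the labels and the methods, the authors trimmed reads with Trim Galore 0.4.3 and aligned them to rn6 with Bismark 0.16.3. They kept CpGs with more than 10 reads and called P2 to P10 differences in each pup with methylKit (false discovery rate 0.05). Sites that pups of the control or of the LBN group shared were kept, and those within 100 base pairs were merged. The deposited values are methylation percentages per DMR, not corrected for cohort and without read numbers, so depth is unknown and no coverage minimum could be varied. Samples were grouped by their titles, and swabs of a pup were paired by its name.

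DMRs with end minus start of 1 and a mean of at least 45% and under 60% over the P2 columns were kept. limma 3.58.1 in R 4.3.3 was fitted over all DMRs, on log2((percent + 1)/(100 − percent + 1)) for levels, called the log2 odds scale, and for δ methylation on log2(P10/P2) over DMRs with no level of 0. The pup was a block for age and cohort a covariate for experience. Tests were two-sided, p values were Benjamini-Hochberg adjusted over all DMRs, and 0.05 was the threshold. Fits were tested on simulated data with samples and DMRs drawn independently. DMRs here moved together, so that test does not cover calls that arise together. Pups were treated as independent, which makes p values too small where pups shared a dam. Gene names and places came from the study's tables of DMRs, whose values were not used, and promoters from RefSeq (GRCr8), where 63 of 68 genes matched.

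The DMRs, gene lists and tests were chosen with earlier results of these data known. Named DMRs were the 6 largest mean falls and 6 largest rises among those moved the same way in at least 17 of 19 pups, the 5 lowest p values in 3 comparisons, genes of the study's text, the DMRs nearest the limits, and the 3 widest and 3 narrowest P10 ranges. Python 3.11.15 with numpy 2.4.6, pandas 2.3.3 and matplotlib 3.10.9 was used. Other scales, pseudocounts, filters, blocks and variance models were tried, as were fits within a cohort and fits leaving out a pup.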

Additional observations from a re-analysis of the deposited data

Results flagged for a closer look

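Of 120 groups of 4 to 6 pups examined for a pup far from the rest of its group, 8 had one, and chance flags about 1 in 20 groups. The mean change of the 586 DMRs was −12.0 percentage points in C8 of cohort 2, below the other controls of that cohort. Among the controls of cohort 2, C5 stood apart with changes of −28.1 at Pecr and 38.6 at chr15:108041376-108041377, C1 with −26.0 at chr12:13368480-13368481, and C11 with 10.1 at chr2:94379285-94379286 and 18.7 at chr5:144856136-144856137. In cohort 1, C6 changed by −65.0 at Slc7a1 and LBN3 by −16.7 at Spsb4.

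Effects that differed between cohorts by the limma test of the difference were the 39 DMRs called in δ methylation, with −1.50 at chr5:114203954-114203955, −1.36 at LOC102552318, −0.97 at chr16:84515629-84515630, −1.84 at Kcnn4 and −1.17 at chr3:160536454-160536455, for cohort 2 minus cohort 1.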

How the results depend on the processing

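Counts of called DMRs among the 586 were within 1.5 times under other pseudocounts, a filter on low levels, single-CpG rows alone and another variance model. Percentages in place of the log scales gave 45 between the ages in LBN pups (26 on log odds) and 13 between cohorts in δ methylation (39 on log ratios), and the cause was not tested. Shares of all DMRs on percentages are not given. Cohort 1 alone gave 144 between the ages, 3 in controls and 90 in LBN pups (25.8%, 0.702% and 16.5% of all DMRs), and 66 for LBN against control at P10. Cohort 2 alone gave 82 between the ages in LBN pups (16.6% of all DMRs), 84 for LBN against control at P2, and 1 in δ methylation. In cohort 1 alone the LBN effect at P10 was called at chr5:60671189-60671190 (1.08), Cbs (1.62), chr11:30240203-30240204 (1.82) and chr4:5947937-5947938 (1.4), on log2 odds, and at Cbs it was −0.05 in cohort 2. The first component of the changes held 63.0% of the variance in cohort 1, 47.4% in cohort 2 and 47.4% on log ratios, all added after seeing the data.

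With each pup left out in turn, the counts ran from 241 to 289 between the ages, from 103 (without C1 of cohort 2) to 226 (without C9 of cohort 1) in controls, and from 3 (without LBN2 of cohort 2) to 37 (without LBN4 of cohort 2) in LBN pups. They ran from 21 (without LBN11 or C8 of cohort 2) to 72 (without C11 of cohort 2) between cohorts in δ methylation, from 43 (without C5 of cohort 2) to 159 (without LBN3 of cohort 1) between cohorts at P2, and from 283 to 333 at P10. For LBN against control they were 0 at P10, at P2 and in δ methylation. For the difference between cohorts in the LBN effect they ran from 0 to 40 in δ methylation (40 without LBN4 of cohort 1) and were 0 at P10. The mean level ran from 52.1% to 52.7% at P2 and from 47.7% to 48.7% at P10, and the mean change from −4.63 to −3.84. No result changed its direction past the threshold.

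The labels give no link between control and LBN pups of the same number beyond that number. The mean correlation of their changes across DMRs was −0.0235 for 5 pairs of the same number, which ran from −0.688 to 0.366. It was 0.00262 for the other 41 within a cohort. Whether pups of the same number shared a litter was not tested. With that number as a replicate block, LBN against control gave 0 at P10, 0 at P2 and 0 in δ methylation. Without the pup as a replicate block, 307 passed between the ages, and the share of all DMRs in that fit is not given. Read depth limits each percentage by an unknown amount, and 4 to 6 pups per group of a cohort limit the within-cohort counts.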
